A study of Capra hircus with 10 samples.

Results

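Bone morphogenetic proteins (BMPs) are secreted growth factors of the TGF-beta superfamily. A BMP dimer binds a pair of type II and a pair of type I receptors on the cell surface, and the type I receptor then phosphorylates SMAD1, SMAD5 or SMAD9, which enter the nucleus together with SMAD4. In the ovary, the oocyte itself secretes the relatives BMP15 and GDF9, which act on the surrounding granulosa cells and are known from sheep and goats as genes that affect ovulation rate and litter size. The genes examined here were BMP15, GDF9, the ligands BMP2, BMP4 and BMP6, the type I receptors BMPR1A and BMPR1B, the type II receptor BMPR2, and the signal carriers SMAD1 and SMAD5. They were taken by symbol among the protein-coding rows of the transcript table, and the values of all transcripts of a symbol were summed. All 10 genes were found among 20587 gene symbols, with 32 of the 50146 transcripts in the table.

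The samples were 10 ovaries of Anhui white goats collected from a slaughterhouse, 5 labelled follicular phase and 5 labelled luteal phase, and the question was which transcripts differ between these phases of the estrous cycle. From the total RNA of each ovary 1 paired-end, strand-specific library was made after removal of ribosomal RNA. The unit is FPKM, the fragments of a transcript divided by its length and by the mapped fragments of the library, and every error below is the SD over the 5 ovaries of a phase unless a standard error (SE) is named. The sources used here do not say whether the ovaries came from separate goats, so the p-values measure only the spread between these ovaries, which may in part be technical. The age of the animals and the way in which the phase was assigned were not given either.

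Summed FPKM per ovary lay between 492324 and 540124 in the follicular phase and between 452508 and 503276 in the luteal phase, and the reads behind each ovary's values are not given in the sources used here. The phase labels were checked against marker genes of ovarian cell types. All 7 tested markers of the corpus luteum, the progesterone-producing gland that forms from the ovulated follicle, were higher in the luteal phase, and their summed level was between 5939 and 8093 FPKM there, compared with 132 to 184 FPKM in the follicular phase. All 8 endothelial markers were also higher, with sums of 247 to 324 FPKM against 125 to 154 FPKM. Of 8 stroma markers 2 were higher and 2 lower, and of 5 tested leukocyte markers 1 was higher, beside 15.9% of all genes tested called higher and 27.8% called lower. No marker of these or of the oocyte, granulosa, theca, stroma and leukocyte lists was at 0 in any ovary.

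Of the 10 genes, 8 differed between the phases (limma on log2(FPKM + 0.1), adjusted p under 0.05 by Benjamini-Hochberg over 15359 genes). Differences were common across the transcriptome, with 43.7% of all tested genes called. BMP15, GDF9, BMP2, BMPR1A and SMAD5 were lower in luteal phase ovaries (5 genes, beside 27.8% of all genes called lower), and BMP6, BMPR1B and BMPR2 were higher (3 genes, beside 15.9% called higher). In these 8 genes no luteal ovary reached into the follicular range, which was the case for 28.4% of all genes tested. The median log2 fold change, luteal minus follicular, was -0.39 over the 10 genes and -0.14 over all genes tested. The direction of all 10 was the same when ovaries were scaled to a common median, by quantiles or as TPM. The split of calls over all genes did move with the scaling, from 36.3% of calls higher in the luteal phase as reported to 48.8%, 41.8% and 52.5% in that order.

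**Figure D1:**
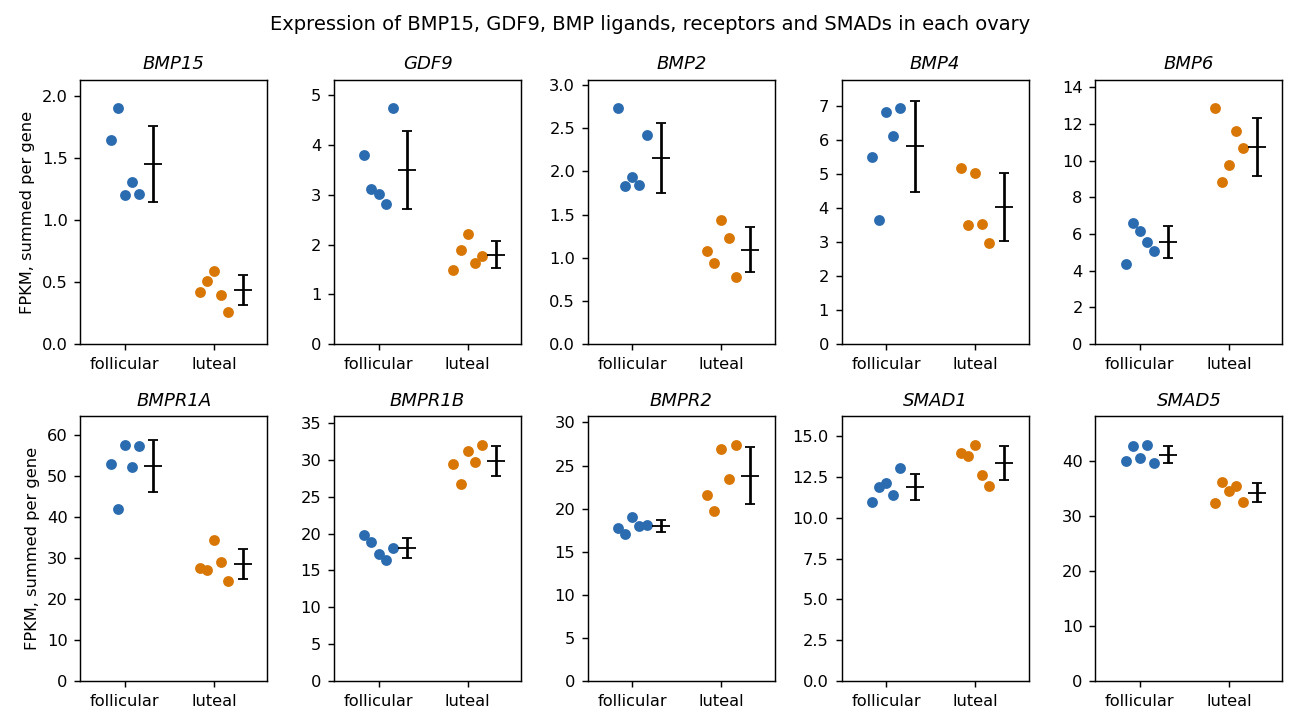
Each panel plots the FPKM of 1 gene, summed over its transcripts, on a linear axis from 0. Points are the 5 follicular (blue) and 5 luteal (orange) ovaries, and the bar beside them is the mean with its SD. The phases do not overlap in 8 panels and overlap for BMP4 and SMAD1.

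BMP15 had the largest log2 fold change of the 10 genes, except with a pseudocount of 1, where it was -0.77 and BMPR1A (-0.85) and BMP6 (0.84) came before it. It was at 1.64, 1.90, 1.21, 1.31 and 1.21 FPKM in follicular ovaries 1 to 5 and at 0.423, 0.512, 0.590, 0.395 and 0.263 FPKM in luteal ovaries 1 to 5. The highest luteal ovary stayed below the lowest follicular ovary, and luteal ovary 5 was the lowest of all. The means were 1.45 ± 0.307 and 0.436 ± 0.124 FPKM (SD, n = 5 each), a 3.33-fold lower level in the luteal phase, with a log2 fold change of -1.55 (SE 0.21, limma adjusted p = 0.00019). In whole ovaries, fewer cells of a type and less RNA per cell cannot be told apart, and this holds for every gene below.

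GDF9, the partner of BMP15 in the oocyte, was also lower in the luteal phase. Its level was 3.81, 3.12, 3.02, 2.81 and 4.75 FPKM in follicular ovaries 1 to 5 and 1.50, 1.89, 2.21, 1.63 and 1.78 FPKM in luteal ovaries 1 to 5. Follicular ovaries 5 and 1 were highest, and again no luteal ovary reached the follicular range. Means were 3.50 ± 0.790 and 1.80 ± 0.274 FPKM (SD, n = 5 each), 1.94-fold lower in the luteal phase, with a log2 fold change of -0.91 (SE 0.16, limma adjusted p = 0.0012). Most of this came from transcript NM_001285708.1 (2.60 against 1.11 FPKM, log2 fold change -1.17, adjusted p = 0.013 over all transcripts), whereas the second transcript, XM_013965446.2, was at 0.902 and 0.691 FPKM with overlapping phases and was not called (adjusted p = 0.39).

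Some other oocyte transcripts were lower in the luteal phase as well. Of 12 tested oocyte markers, such as the zona pellucida genes ZP2 and ZP3, the transcription factor NOBOX and the maternal-effect gene NLRP5, 7 were called lower in the luteal phase and the other 5 were not called (beside 27.8% of all genes called lower), with a median log2 fold change of -1.18 and a range from -1.53 to -0.65. The summed level of the list was 16.3 to 53.2 FPKM in follicular ovaries and 8.02 to 21.4 FPKM in luteal ovaries, so its phases overlapped. Measured against the mean log2 level of these markers in the same ovary, BMP15 stood at -0.01 ± 0.73 in the follicular and -0.46 ± 0.37 in the luteal phase (SD, n = 5 each). That difference of -0.45 was within the spread between ovaries (two-sided exact permutation p = 0.27, adjusted p = 0.34 over 5 such differences). It was -0.26 without follicular ovary 2, -0.73 without follicular ovary 5 and -0.18 with a pseudocount of 1, and passed in none of these (exact permutation, adjusted p = 0.52, 0.079 and 0.53). GDF9 stood at 1.20 ± 0.34 and 1.39 ± 0.32 above the marker mean, a difference of 0.19 (exact permutation p = 0.38, adjusted p = 0.38) that turned to -0.09 with a pseudocount of 1. The part of the oocyte content of these ovaries in the lower BMP15 and GDF9 was not tested.

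Within the phases, GDF9 followed the other oocyte transcripts closely. With the phase means removed, its log2 level correlated with the oocyte marker mean with r = 0.96 and rho = 0.89 over the 10 ovaries (permutation within the phases, adjusted p = 0.0014 and 0.011 over 3 relations), and r was 0.90 without follicular ovary 5 and luteal ovary 3, the 2 farthest from the median. For BMP15 and the same markers, r was 0.23 and rho 0.13 (permutation adjusted p = 0.68 and 0.74), and r was 0.27 without the same 2 ovaries. BMP15 and GDF9 themselves gave r = 0.15 and rho = 0.22 (permutation adjusted p = 0.68 and 0.74), and r was -0.04 without luteal ovaries 3 and 5. Both relations of BMP15 turned below 0 without luteal ovary 3, where r was -0.04 with the markers and -0.10 with GDF9, and were higher without follicular ovary 5, where r was 0.54 with the markers and 0.51 with GDF9 (permutation adjusted p = 0.21 for both). Follicular ovary 5 was the highest of all in GDF9 and in the marker mean but next to lowest of the follicular ovaries in BMP15.

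**Figure D2:**
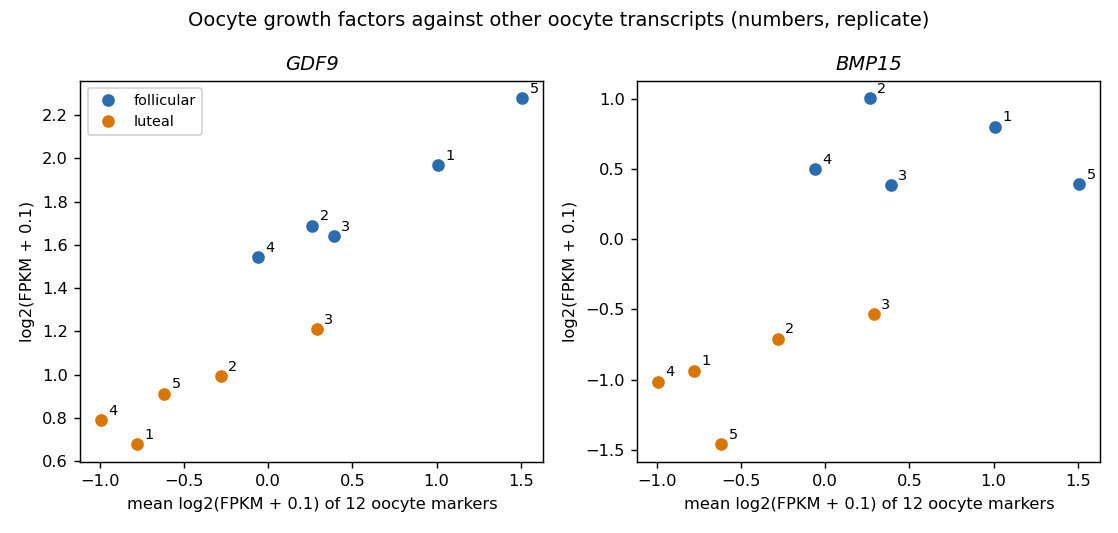
The log2(FPKM + 0.1) of GDF9 (left) and BMP15 (right) is plotted against the mean log2(FPKM + 0.1) of 12 oocyte markers, with 1 point per ovary and its replicate number. GDF9 lies along 1 line in each phase (phase-centred r = 0.96), and BMP15 does not (0.23), with follicular ovary 5 far to the right.

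The log2 level of BMP15 was 1.21 ± 0.44 below that of GDF9 in follicular ovaries and 1.85 ± 0.30 below it in luteal ovaries (SD, n = 5 each). The difference of -0.64 had an exact permutation p of 0.040 (two-sided) and did not pass after adjustment over the 5 differences (adjusted p = 0.066). Without follicular ovary 5 it was -0.81 and passed (exact permutation, adjusted p = 0.040), whereas with a pseudocount of 1 it was -0.096 (exact permutation, adjusted p = 0.56). The pass without follicular ovary 5 depends on having the BMPR1A and BMPR1B difference, described below, among the 5 differences. No conclusion is drawn from that pass. By phase-centred r over the 10 ovaries, the genes most like BMP15 were WFDC1 (0.94), GPR75 (0.89) and CMTM5 (0.89). Those most like GDF9 were ALPK2, TDRD15 and NPM2 (0.99, 0.99 and 0.98). NPM2 is an oocyte-specific histone chaperone.

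Of the other ligands, BMP2 was lower and BMP6 higher in the luteal phase. BMP2 was at 2.73, 1.83, 1.93, 1.84 and 2.42 FPKM in follicular ovaries 1 to 5 and at 1.08, 0.946, 1.44, 1.23 and 0.778 FPKM in luteal ovaries 1 to 5. The phases did not overlap, and the log2 fold change was -0.92 (SE 0.18, limma adjusted p = 0.0022). BMP2 had a single transcript in the table.

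BMP6, a ligand made by oocytes and granulosa cells in several mammals, was at 4.39, 6.63, 6.15, 5.58 and 5.10 FPKM in follicular ovaries 1 to 5 and at 12.9, 8.82, 9.76, 11.6 and 10.7 FPKM in luteal ovaries 1 to 5. Every luteal ovary was above every follicular ovary, a 1.93-fold higher mean (5.57 ± 0.876 against 10.7 ± 1.57 FPKM, SD, n = 5 each) with a log2 fold change of 0.94 (SE 0.13, limma adjusted p = 0.00028). Transcript XM_018038923.1 carried most of it, with 4.18 FPKM in the follicular and 8.63 FPKM in the luteal phase (log2 fold change 1.03, adjusted p = 0.0011). BMP6 differed in the opposite direction from the oocyte markers and in the same direction as the corpus luteum and endothelial markers. Of 9 granulosa markers, 8 had a negative log2 fold change. Of the 9, 4 were called lower and 1 higher (beside 27.8% and 15.9% of all genes). The part of these cell types in the BMP6 values was not tested.

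BMP4, a ligand of theca cells and stroma, was not called. Its level was 5.51, 3.65, 6.84, 6.14 and 6.95 FPKM in follicular ovaries 1 to 5 and 5.19, 3.50, 5.04, 3.54 and 2.97 FPKM in luteal ovaries 1 to 5. Follicular ovary 2 lay among the luteal ovaries, and the log2 fold change was -0.51 (SE 0.20, limma adjusted p = 0.062). It was called lower without follicular ovary 2 (-0.67, adjusted p = 0.010), without luteal ovary 1 (-0.61, adjusted p = 0.039) and without luteal ovary 3 (-0.60, adjusted p = 0.043). The summed level of the 3 theca markers was 165 to 233 FPKM in follicular and 54.9 to 110 FPKM in luteal ovaries. INSL3 was the largest part in the follicular phase, 2 of the 3 were called lower (beside 27.8% of all genes), and NR5A1 was not called (30.1 against 36.8 FPKM). Their part in the BMP4 values was not tested.

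**Figure D3:**
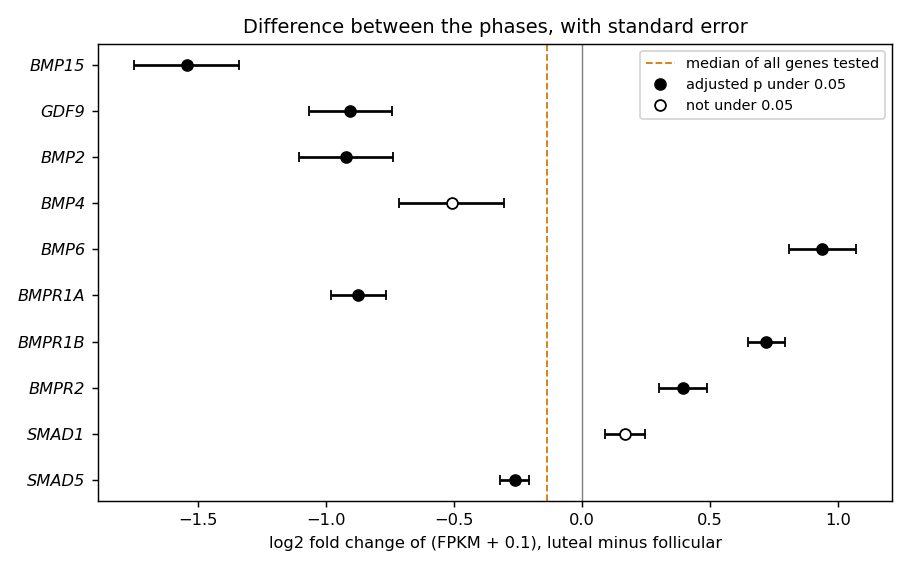
Points are the log2 fold changes of (FPKM + 0.1), luteal minus follicular, of the 10 genes, bars are 1 standard error, and filled points passed adjusted p under 0.05. BMP15 lies farthest to the left at -1.55, BMP6 and BMPR1B lie farthest to the right, and the dashed line is the median of all genes tested (-0.14).

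The type I receptors differed in opposite directions. BMPR1A, which is used by BMP2 and BMP4 in many tissues, was at 52.9, 42.0, 57.6, 52.1 and 57.3 FPKM in follicular ovaries 1 to 5 and at 27.6, 27.1, 34.4, 29.1 and 24.5 FPKM in luteal ovaries 1 to 5. The phases were well apart, with means of 52.4 ± 6.32 and 28.5 ± 3.67 FPKM (SD, n = 5 each), a 1.84-fold lower luteal level and a log2 fold change of -0.87 (SE 0.11, limma adjusted p = 0.00011). Transcript XM_018042146.1 held most of the signal and was itself lower (47.0 against 25.3 FPKM, log2 fold change -0.89, adjusted p = 0.00094). A second transcript, XM_018042147.1, was at only 0.0245 and 0.0310 FPKM in luteal ovaries 2 and 4 but at 3.98 to 5.23 FPKM in the other luteal ovaries, so the division of BMPR1A among its transcripts was uneven between ovaries of 1 phase.

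BMPR1B, the receptor through which BMP15 signals and a known prolificacy gene of sheep, was higher in the luteal phase. It was at 19.8, 18.9, 17.2, 16.4 and 18.1 FPKM in follicular ovaries 1 to 5 and at 29.5, 26.8, 31.2, 29.7 and 32.1 FPKM in luteal ovaries 1 to 5. Both phases were narrow and far apart, with means of 18.1 ± 1.35 and 29.9 ± 2.04 FPKM (SD, n = 5 each). The luteal level was 1.65-fold higher, with a log2 fold change of 0.72 (SE 0.07, limma adjusted p = 3.1e-05).

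Most of this gene-level difference lay in 1 of the 11 BMPR1B transcripts. XM_013964506.2 was at 6.43, 7.14, 3.61, 3.60 and 5.23 FPKM in follicular ovaries 1 to 5 and at 16.8, 16.1, 16.8, 19.3 and 19.6 FPKM in luteal ovaries 1 to 5, a 3.40-fold difference in means (log2 fold change 1.80, SE 0.20, limma adjusted p = 0.00024 over all transcripts). The other 10 transcripts together held 12.9 ± 0.700 FPKM in the follicular and 12.1 ± 1.62 FPKM in the luteal phase, with overlapping phases (SD, n = 5 each). XM_013964506.2 thus made up 28.4 ± 7.1% of the BMPR1B signal in follicular ovaries (21.0 to 37.7%) and 59.4 ± 4.2% in luteal ovaries (53.8 to 64.8%). Of the 9 BMPR1B transcripts tested, the other 8 were not called, although the scarce NM_001285575.1 was also higher in every luteal ovary (0.232 to 0.365 FPKM) than in any follicular ovary (0.111 to 0.214 FPKM, log2 fold change 0.52, limma adjusted p = 0.13). The transcripts share exons, so their single values are the authors' estimates of how shared fragments divide, and this share was chosen for description after its values were seen.

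**Figure D4:**
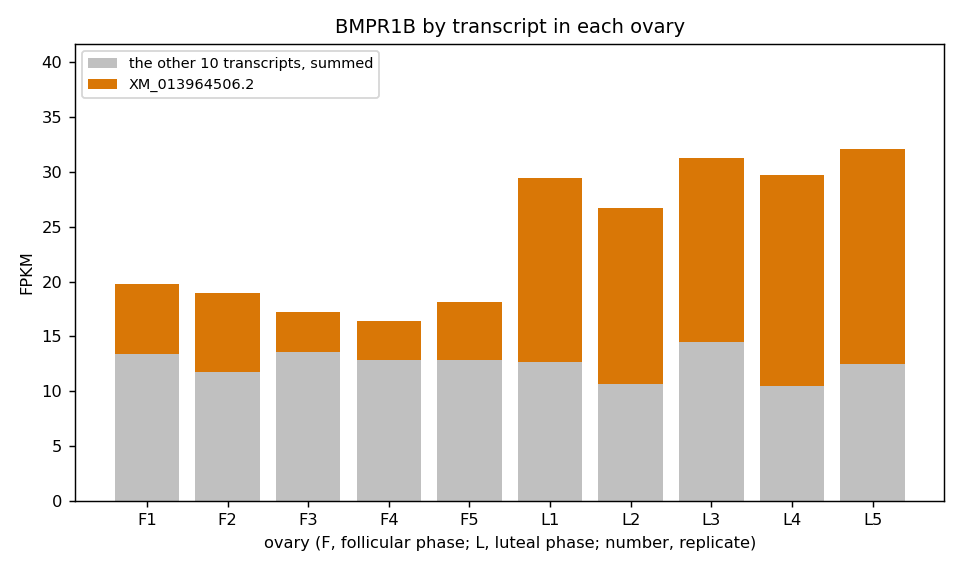
Bars stack the FPKM of BMPR1B in each ovary into transcript XM_013964506.2 (orange) and the sum of the other 10 transcripts (grey). The grey part is similar in all ovaries (10.5 to 14.4 FPKM), and the orange part runs from 3.60 to 7.14 FPKM in follicular and from 16.1 to 19.6 FPKM in luteal ovaries.

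The balance of the type I receptors therefore differed between the phases. The ratio of BMPR1A to BMPR1B was 2.67, 2.22, 3.35, 3.18 and 3.17 in follicular ovaries 1 to 5 and 0.937, 1.01, 1.10, 0.977 and 0.764 in luteal ovaries 1 to 5. BMPR1A was thus above BMPR1B in every follicular ovary, and both were at about the same level in luteal ovaries. On the log2 scale the difference between the genes was 1.52 ± 0.24 in the follicular and -0.07 ± 0.20 in the luteal phase (SD, n = 5 each). Since each gene separated the phases in an opposite direction, their ratio had to separate them too, and its values are given as a description.

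Granulosa cells are a main site of BMPR1B in the ovary. Of 9 granulosa markers, 4 were called lower in the luteal phase (the FSH receptor FSHR, FOXL2, INHBB and HSD17B1), and 1, NR5A2, which luteal cells also express, was called higher (beside 27.8% and 15.9% of all genes), with a median log2 fold change of -1.04 and a summed level of 441 to 1718 FPKM in follicular and 264 to 1135 FPKM in luteal ovaries. Relative to the mean log2 level of these markers, BMPR1B was at -1.56 ± 0.57 in the follicular and -0.06 ± 0.75 in the luteal phase (SD, n = 5 each), a difference of 1.50 (two-sided exact permutation p = 0.016, adjusted p = 0.040). The difference stayed between 1.23 and 1.73 when single ovaries were left out, but without any one of follicular ovaries 1, 2, 4 and 5 and luteal ovaries 2 to 5 the exact permutation adjusted p was 0.053 to 0.079. With 4 ovaries against 5 the lowest possible exact p is 0.016 before adjustment, so these lost calls say little about stability. The difference of 1.50 largely restates that BMPR1B was higher and the marker mean lower (-0.78) in the luteal phase. Its adjusted p is under 0.05 only because the BMPR1A and BMPR1B difference, described above, is among the 5 differences. The value of 1.50 is therefore given as a description. The 7 corpus luteum and 8 endothelial markers were higher in the luteal phase, as BMPR1B was, and the part of any of these cell types in the BMPR1B values was not tested. The genes most like BMPR1B by phase-centred r over the 10 ovaries were SCARF2 (0.94), CD151 (0.94) and AMACR (0.93).

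BMPR2, the type II receptor shared by BMP15, GDF9 and the BMPs, was modestly higher in the luteal phase. Its single transcript was at 17.7, 17.0, 19.0, 18.0 and 18.1 FPKM in follicular ovaries 1 to 5 and at 21.6, 19.7, 26.9, 23.4 and 27.4 FPKM in luteal ovaries 1 to 5. The follicular ovaries were nearly equal, and all luteal ovaries lay above them. The log2 fold change was 0.39 (SE 0.09, limma adjusted p = 0.0059), or 1.33-fold in means. BMPR2 is strongly expressed in endothelium, and the endothelial markers named above were higher in the same ovaries. Their part in it was not tested.

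The signal carriers differed less than the ligands and receptors. SMAD5 was at 40.0, 42.7, 40.4, 42.9 and 39.6 FPKM in follicular ovaries 1 to 5 and at 32.4, 36.1, 34.6, 35.5 and 32.5 FPKM in luteal ovaries 1 to 5. The phases did not overlap, and the luteal level was 1.20-fold lower (log2 fold change -0.26, SE 0.06, limma adjusted p = 0.0039), but the call was lost when ovaries were scaled to a common median (-0.18, adjusted p = 0.092). SMAD1 was at 11.0, 11.9, 12.1, 11.4 and 13.1 FPKM in follicular ovaries 1 to 5 and at 14.0, 13.8, 14.5, 12.7 and 12.0 FPKM in luteal ovaries 1 to 5, with overlap. Its log2 fold change of 0.17 (SE 0.08, limma adjusted p = 0.10) was not called, although it was under scaling by TPM (0.27, adjusted p = 0.031), by a common median (0.25, adjusted p = 0.032) and by quantiles (0.22, adjusted p = 0.044).

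The order of the levels also differed between the phases. In follicular ovaries the means ran from BMPR1A through SMAD5, BMPR1B, BMPR2, SMAD1, BMP4, BMP6, GDF9 and BMP2 to BMP15, and the neighbours BMPR1A and SMAD5, BMPR1B and BMPR2, BMP4 and BMP6, BMP6 and GDF9, and BMP2 and BMP15 overlapped. In luteal ovaries SMAD5 and BMPR1B came first, followed by BMPR1A, and BMP6 came before BMP4, and the neighbours BMPR1B and BMPR1A, BMPR1A and BMPR2, and SMAD1 and BMP6 overlapped. BMP15 was lowest in both phases, with 42.0% of gene symbols below its mean in the follicular phase and 34.0% in the luteal phase. BMPR1A had 94.2% and 88.3% of symbols below it.

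Of the 32 transcripts 26 were tested and 8 were called, 1 in each of the 8 called genes and in the direction of its gene (5 lower, 3 higher), beside 17.3% of 32842 transcripts tested.

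Other genes of the pathway were examined in 5 lists, which together held 62 genes of the table, 55 of them tested. Of these, 29 were called (11 higher and 18 lower in the luteal phase), beside 43.7% of all genes tested, and the median log2 fold change was -0.24 beside -0.14 over all genes. Among 9 tested ligands other than the genes above, 3 were lower (beside 27.8% of all genes): GDF10 (log2 fold change -1.87, adjusted p = 0.0075), GDF5 (-1.49, adjusted p = 0.00033) and AMH (-1.42, adjusted p = 0.00062), the anti-Müllerian hormone of growing follicles, which went from 21.8 ± 6.78 to 7.85 ± 1.76 FPKM (SD, n = 5 each). BMP8A was called higher at a low level (0.131 against 0.282 FPKM, log2 fold change 0.72, adjusted p = 0.023), a call lost without luteal ovary 1 or 5 (0.60 and 0.70, adjusted p = 0.054 and 0.050). GDF3 was at -0.81 and not called (adjusted p = 0.13), though without follicular ovary 2 it was (-1.17, adjusted p = 0.013). The median of this list was -0.68.

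Among 10 tested receptors and co-receptors, 4 were lower and 2 higher (beside 27.8% and 15.9% of all genes), with a median of -0.36 beside -0.14. AMHR2, the type II receptor of AMH, was at -1.12 (limma adjusted p = 0.00069), the co-receptor RGMA at -0.96 (adjusted p = 0.00053), and ACVR2A, a type II receptor of activins and BMPs, at -0.44 (adjusted p = 0.0030). NEO1, the receptor of RGMA, was lower too (-0.45, adjusted p = 0.021), a call lost without follicular ovary 1 or luteal ovary 5 (-0.40 each, adjusted p = 0.053 and 0.052). The endothelial receptors ACVRL1 (0.93, adjusted p = 0.00013) and ENG (0.82, adjusted p = 0.011) were higher, as were all 8 endothelial markers, whose part in them was not tested.

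Among 12 SMADs and regulators, 8 were lower and 2 higher (beside 27.8% and 15.9% of all genes), with a median of -0.46. The inhibitory SMAD7 was higher by 1.03 on the log2 scale (1.63 ± 0.138 to 3.44 ± 0.495 FPKM, SD, n = 5 each, limma adjusted p = 0.00014), whereas the pseudoreceptor BAMBI (-0.77, adjusted p = 0.016), PMEPA1 (-0.71, adjusted p = 2.3e-05) and the SMAD repressor SKI (-0.69, adjusted p = 0.00077) were lower. SMAD4, the common partner of all receptor-regulated SMADs, was at 31.1 ± 1.03 and 25.3 ± 0.742 FPKM (SD, n = 5 each, log2 fold change -0.30, limma adjusted p = 0.0012). SMAD2, which carries the GDF9 signal, was at -0.56 (adjusted p = 0.00042), and SMAD9 at -0.59 (adjusted p = 0.0055).

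Of 15 tested antagonists and extracellular modulators, 3 were higher and 3 lower (beside 15.9% and 27.8% of all genes), with a median of -0.17 beside -0.14. The antagonists SOSTDC1 (-1.20, limma adjusted p = 0.010) and NOG (-0.78, adjusted p = 0.0037) were lower, and the proteinase BMP1, which is not a growth factor, was higher (0.76, adjusted p = 1.1e-05). The antagonist GREM1 was called higher (1.44, adjusted p = 0.042), but the call was lost without any one of follicular ovaries 2, 3 and 4 and luteal ovaries 1 to 4 (1.14 to 1.56, adjusted p = 0.056 to 0.097).

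Of 11 BMP target genes, 5 were called higher in the luteal phase and the other 6 were not called, beside 15.9% of all genes called higher, with a median log2 fold change of 0.42 beside -0.14 over all genes. ID1, a classic target of SMAD1 and SMAD5, was at 30.1 ± 1.85 and 43.2 ± 7.09 FPKM (SD, n = 5 each, log2 fold change 0.51, limma adjusted p = 0.0028). GATA2 was at 0.63 (adjusted p = 0.017). SMAD6 and SMAD7, the 2 genes called higher among the SMADs and regulators above, are counted in this list again. All 7 corpus luteum and all 8 endothelial markers were higher in the same ovaries, and their part in the target genes was not tested. The calls of ID2 (0.54, adjusted p = 0.046) and SMAD6 (0.42, adjusted p = 0.038) were borderline. ID2 was not called without any one of follicular ovaries 1 to 4 and luteal ovaries 2, 4 and 5 (0.44 to 0.56, adjusted p = 0.059 to 0.11), nor SMAD6 without follicular ovary 1, 3 or 4 or luteal ovary 3, 4 or 5 (0.32 to 0.43, adjusted p = 0.056 to 0.092). MSX2 was at 0.52 and not called (adjusted p = 0.071), but was without luteal ovary 2 (0.71, adjusted p = 0.0063).

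**Figure D5:**
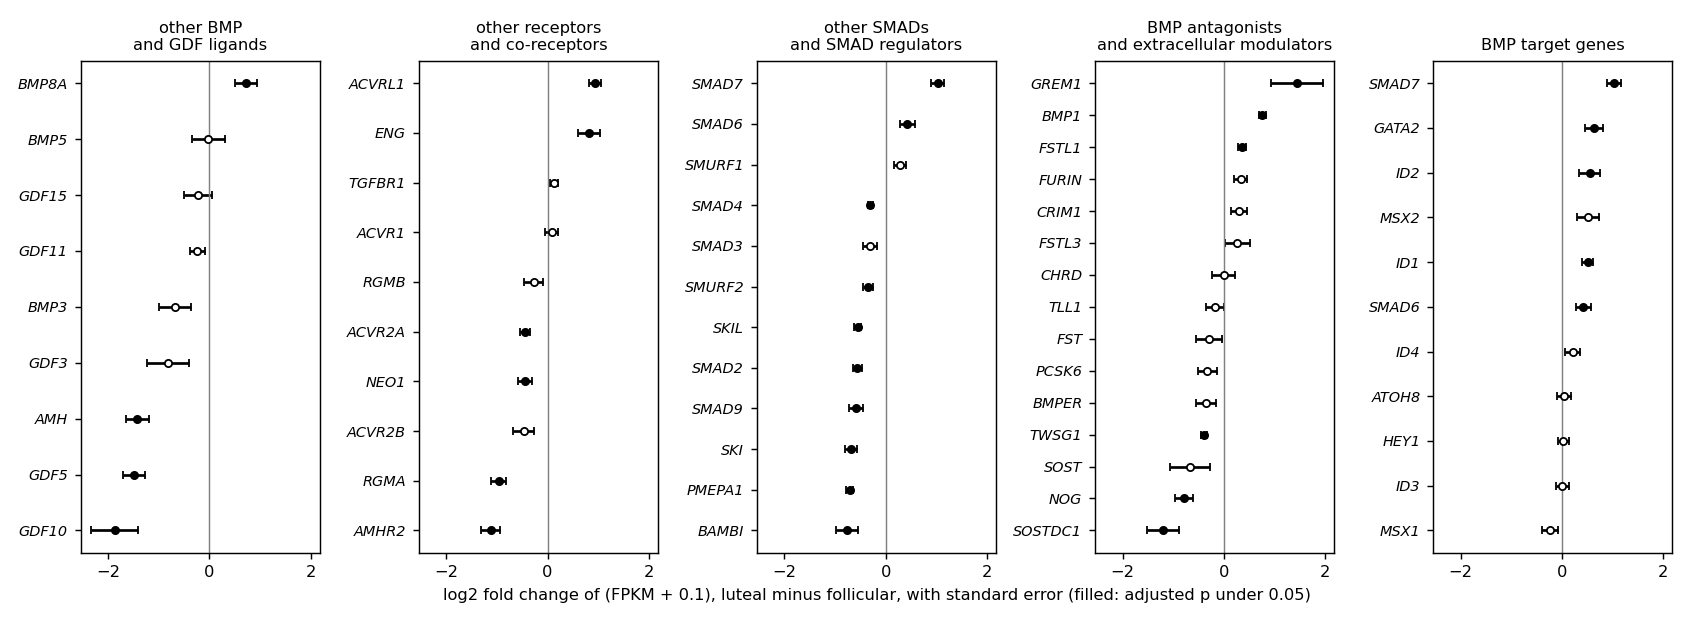
Each panel shows 1 list of other pathway genes, with the log2 fold change of (FPKM + 0.1), luteal minus follicular, as a point and its standard error as a bar. Filled points passed adjusted p under 0.05. Called target genes lie to the right of 0, whereas 8 of the 10 called SMADs and regulators lie to its left.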

How the data were processed

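The authors aligned the reads of each ovary with HISAT2 2.0.4, assembled transcripts with StringTie 1.3.1 and computed FPKM with Cuffdiff 2.1.1 (names and versions also in the submitters' processing notes). The genome build was not given in the sources used here, and no coordinates are reported. The deposited FPKM per transcript and ovary were summed by symbol over protein-coding rows, and features with at least 0.1 FPKM in at least 5 of 10 ovaries were tested on log2(FPKM + 0.1) with limma 3.58.1 (trend, two-sided) in R 4.3.3, with Benjamini-Hochberg adjustment over all features. Fold changes on this scale understate those of low genes. Differences within an ovary used exact permutation of ovaries, and correlations 100000 permutations within the phases (Python 3.11.15, scipy 1.17.1).

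The genes and lists were chosen with earlier results of these data known. The text names all 10 genes, some called genes of the 5 pathway lists (any could be named), always the 4 largest changes per list, and the 3 genes most like BMP15, GDF9 and BMPR1B. Symbols absent from the table were matched through RefSeq synonyms (assembly ARS1.2). No 2 ovaries held identical values. The fits were repeated with other pseudocounts (1 and 0.01), without a filter or with one at 0.5 FPKM, scaled to a common median, by quantiles or as TPM, with limma without trend, with a replicate block and without each ovary.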

Additional observations from a re-analysis of the deposited data

Results flagged for a closer look

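The log2 difference between BMP15 and GDF9 in luteal ovary 5 was -2.37, far from the other luteal ovaries, which lay between -1.81 and -1.61. This ovary had the lowest BMP15 level of all (0.263 FPKM) and a GDF9 level inside the luteal range (1.78 FPKM). It was the only 1 of 46 groups of 5 ovaries that stood out by Dixon's test, a test that marks about 1 group in 20 by chance.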

How the results depend on the processing

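All 8 calls among the 10 genes kept their direction under every alternative, and all but SMAD5 kept their call. The number of genes called was 6711 as reported and 5494 to 7020 under the alternatives (5443 to 6981 without single ovaries), and of the 10 genes 8 to 9 were called without single ovaries. With a replicate block, 7020 genes and 4458 transcripts (5677 as reported) were called, and of the 8 called transcripts those of GDF9 (adjusted p = 0.058) and BMP2 (adjusted p = 0.052) were not. The SMAD5 transcript lost its call under a common median (-0.17, adjusted p = 0.22). The block also ended the calls of BMP8A, GREM1 and SMAD6 (adjusted p = 0.051, 0.072 and 0.057). Same-numbered ovaries of the phases deviated together weakly but always with r above 0 (0.026 to 0.199), and 5 of 10 ovaries correlated best with their own number. Whether same-numbered ovaries shared a batch was not tested. Among the other pathway genes, the calls of GREM1, ID2 and SMAD6 were lost without a filter (adjusted p = 0.060, 0.062 and 0.050), those of NEO1 and SMURF2 under TPM (0.093 and 0.10) and that of ID2 under quantiles (0.093), whereas MSX2 was called under a common median and quantiles (0.042 and 0.025). Called higher were also 3 instead of 2 receptors under a common median and 4 instead of 3 antagonists and modulators under every scaling. SMADs and regulators called higher were 3 instead of 2 under a common median and quantiles. Limma without trend ended the calls of GREM1 and ID2 (0.052 and 0.063) and added MSX2 (0.046). With a pseudocount of 1, GDF9 relative to the oocyte markers turned to -0.085 and BMP15 minus GDF9 shrank to -0.096. Without single ovaries, BMP15 minus GDF9 ranged from -0.81 to -0.51, BMP15 minus the oocyte markers from -0.73 to -0.26, BMPR1A minus BMPR1B from -1.69 to -1.52, BMPR1B minus the granulosa markers from 1.23 to 1.73, r of BMP15 with GDF9 from -0.099 to 0.505 and with the oocyte markers from -0.040 to 0.538. The causes were not tested. The reads per ovary were not used here, so no counting error is given for the low BMP15 values, and an uncalled gene may still differ.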

Other observations

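In the RefSeq annotation of ARS1.2 no other gene overlapped any of the 10 genes. The annotation behind the FPKM values and the authors' newly assembled transcripts were not examined for overlap, so fragments shared with other transcripts were not tested. The nearest gene to GDF9, LOC102171149, which lies 79 bases away, was at 116 and 110 FPKM in the follicular and luteal phase and was not called (log2 fold change -0.09, limma adjusted p = 0.46). The nearest gene to BMP6, TXNDC5, was higher in the luteal phase like BMP6 (36.4 against 56.7 FPKM, log2 fold change 0.64, limma adjusted p = 4.4e-05). These neighbours were chosen for description after their values were seen. BMP7, another ligand, was listed but not tested, since only 4 ovaries reached 0.1 FPKM. It was at 0.0977 to 0.314 FPKM in follicular and 0.0363 to 0.0851 FPKM in luteal ovaries.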
